A study of Mus musculus with 8 samples.

Results

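The 35 genes described here are the transcription factor p53 (gene Trp53), its regulators Mdm2 and Mdm4, and further genes known as p53 targets. They were found on the array through the RefSeq accession of each probe, and the probe with the brightest Cy5 signal stood for its gene. By their best-known roles they were sorted into 3 core regulators, 7 genes of cell cycle arrest, 14 of apoptosis, 5 of DNA repair and 6 of metabolism and stress. Of the 35, 33 were bright enough to test, among 22662 genes tested in all. None of the 33 passed the test between mutant and wildtype cells, where 0.0441% of all genes did, and 22 of them differed by less than 0.2 on the log2 scale, as did 72.7% of all genes. The members furthest from 0 in their role groups were Gadd45a and Plk2 among arrest genes, and Perp and Tnfrsf10b among apoptosis genes.

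The cells were EGFP-positive nephron progenitors sorted from C57BL/6 mouse kidneys at embryonic day 15.5. Wildtype pools carried the Six2CreEGFP transgene with HDAC1&2+/+ alleles. Mutant pools carried the same transgene with HDAC1&2f/f alleles, so that Cre recombinase, made where Six2 is active, deletes both histone deacetylase genes in that lineage and in the cells that descend from it. All cells of both groups therefore carry Cre and EGFP, and each array sample is a pool of sorted cells. Each of 8 two-colour arrays (4 wildtype, 4 mutant) held the RNA of a pool in Cy5 and the RNA of wildtype pool 1 in Cy3. Values below are log2 ratios of Cy5 over Cy3, relative to that reference. The array of wildtype pool 1 carried one RNA in both dyes, so a value away from 0 there is not a difference in RNA. In both groups pools 3 and 4 were as alike as repeat measurements of the reference RNA, so each such pair was averaged and counted once. This left 3 wildtype and 3 mutant samples. The labels call the pools biological replicates but do not say which animals they came from, so a p-value measures the spread between these samples, which may in part be technical.

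The labels were checked against marker genes and the deleted genes. All 14 markers of cap mesenchyme progenitors, Six2 among them, were well above background on all 8 arrays. So were all 11 markers of stroma and all 10 of endothelium, so detection alone does not tell progenitors from other cells. Hdac1 read from 0.14 to 0.20 in wildtype and from -0.20 to -0.07 in mutant samples, and Hdac2 from -0.21 to -0.07 and from -0.54 to -0.04. The differences were -0.30 ± 0.09 (SE, n = 3 per group, limma adjusted p = 0.476) and -0.13 ± 0.14 (adjusted p = 0.84), so neither loss passed the test. Whether the probes lie in the deleted exons was not analysed here. A pair of arrays stood apart. On the mutant 1 array, different probes of one gene spread with a median SD of 0.245, against 0.0826 to 0.142 on the others, and on the wildtype 2 array Cy5 was well above background at 48627 of 55681 probes, against 28150 to 33982 elsewhere. Mutant 1 lay more than 0.5 from the mean of the other mutant samples for 9 of 33 members (27.3%), against 19.1% of all genes, so values without it are given where they move a member's difference by over 1.5 times. The sign of the difference turned for 6 of the 33 without mutant 1 (Ccng1, Btg2, Pidd1, Ei24, Ddit4, Gdf15) and for 5 without wildtype 2 (Btg2, Fas, Sesn1, Dram1, Gdf15).

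p53 is held at a low level in unstressed cells by Mdm2, a ubiquitin ligase that marks it for destruction, and by Mdm4, which covers its activation domain. After DNA damage or other stress p53 is stabilised and acetylated, binds a paired sequence element and switches on genes that stop the cell cycle, start apoptosis, repair DNA or adjust metabolism. Mdm2 is itself a target, which closes a feedback loop. Histone deacetylases of class I can remove acetyl groups from p53 as well as from histones. In the developing kidney, p53 and Mdm2 are both known to matter for the upkeep of the Six2-positive progenitor pool. The arrays measured RNA, and neither p53 protein nor its acetylation was measured.

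Promoter sequences of these genes were searched for the p53 consensus. A p53 half-site is a run of 10 bases with a fixed C and G in its core, and 2 half-sites with up to 13 bases between them form a full site. The consensus half-site reads the same on both strands, and neighbouring matches may overlap. In RefSeq windows of 300 bases (250 before and 50 after each annotated start, build GRCm38.p6), at least 1 half-site matched in 11 of the 27 members that had a window, against 9.55% of 27025 genes overall. Counted by windows, 12 of 36 held one, against 8.36% of 32851. No member window held a full site, which 0.0731% of all windows did. Sequence outside these windows was not searched, and no mismatch to the consensus was allowed, so a member may have a site elsewhere. The stretches below are shown because they belong to the members that the results turn on or that are classic targets. Capitals mark the half-site.
Trp53 (chr11:69580109-69580408, + strand, half-site at -75 to -66 from the start): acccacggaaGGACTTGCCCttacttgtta
Mdm2 (chr10:117710709-117711008, - strand, -186 to -177): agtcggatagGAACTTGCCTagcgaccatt
Ccng1 (chr11:40755237-40755536, - strand, -185 to -176): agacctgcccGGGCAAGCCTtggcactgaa
Gadd45a (chr6:67037358-67037657, - strand, -40 to -31): ggttggctgaGGGCTAGCCCcatatctccg
Bax (chr7:45466849-45467148, - strand, -201 to -192): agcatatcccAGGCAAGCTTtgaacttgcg
Ei24 (chr9:36797285-36797584, - strand, -10 to -1): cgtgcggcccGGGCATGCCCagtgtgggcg
For comparison, a window of Cdkn1a, which encodes the cell cycle inhibitor p21 and is no member here, held a full site. The other Cdkn1a window held no half-site.
Cdkn1a (chr17:29090729-29091028, + strand, -73 to -42): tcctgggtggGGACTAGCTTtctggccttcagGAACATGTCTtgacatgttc
Such a match is a stretch of letters and not a measured binding site, and these arrays hold no binding data. The 11 members with a half-site differed between mutant and wildtype by a median of -0.04 (from -0.57 to 0.20), and the 15 tested members with a window but no match by a median of 0.04 (from -0.33 to 0.54).

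The 3 core regulators were each lower on average in the mutant samples, by small amounts that did not pass the test. Their differences ran from -0.24 to -0.11, with a median of -0.21 against 0.0017 over all genes tested. Trp53 itself read -0.08, -0.11 and -0.06 in wildtype samples 1, 2 and 3 and 4, and -0.66, -0.17 and -0.14 in the corresponding mutant samples. The mutant values lay below every wildtype value, but mutant 1 alone stood well away and the other mutant values lay just under the wildtype range. The difference was -0.24 ± 0.15 (SE, 95% confidence interval -0.60 to 0.12, limma adjusted p = 0.803), and it was -0.07 ± 0.08 without mutant 1.

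Mdm2, the ligase and target, read 0.05, 0.12 and 0.11 in wildtype and 0.09, -0.06 and -0.09 in mutant samples. Mutant 1 sat among the wildtype values and the other mutant samples below them. The difference was -0.11 ± 0.10 (interval -0.34 to 0.11, adjusted p = 0.822), and it was -0.17 ± 0.08 without mutant 1. Mdm4, the inhibitory partner, read -0.12, -0.56 and -0.35 in wildtype and -0.23, -0.75 and -0.68 in mutant samples, with overlapping groups and a difference of -0.21 ± 0.18 (adjusted p = 0.819). Without mutant 1 it was -0.38 ± 0.14 (unadjusted p = 0.0331, limma adjusted p = 0.546). In that fit 6 of the 33 members and 8.49% of all genes had an unadjusted p under 0.05, and no member was called. Within the same-numbered pools mutant Mdm4 was lower each time, by -0.11, -0.20 and -0.33. The other, dimmer Mdm4 probe went the opposite way, with a mean difference of 0.27, so the direction of Mdm4 depended on the probe. Neither the plain fit nor the fit with a replicate block for the pool number called a core regulator.

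Over the whole array 10 genes had an adjusted p under 0.05 (0.0441% of those tested), 5 higher (0.0221%) and 5 lower (0.0221%). The fit with the replicate block called 34 (0.15%), 8 higher (0.0353%) and 26 lower (0.115%). None of the 33 tested members was among either set. At an unadjusted p under 0.05 there were 3 members, 1 higher (Zmat3) and 2 lower (Gadd45a, Phlda3), where all genes gave 7.24%, 4.46% and 2.78%. With the block there were 7, of which 4 were higher (Plk2, Plk3, Zmat3, Fas) and 3 lower (Gadd45a, Perp, Phlda3), where all genes gave 12.7%, 7.77% and 4.88%. The groups did not overlap for 6 members (14.7% of all genes), 2 with higher mutant values (8.72%) and 4 with lower ones (5.95%). The mutant mean was higher in 16 members (50.5% of all genes) and lower in 17 (49.5%), and the median difference was -0.0069. The median size of a difference, whatever its sign, was 0.135 for the members and 0.117 for all genes.

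**Figure D1:**
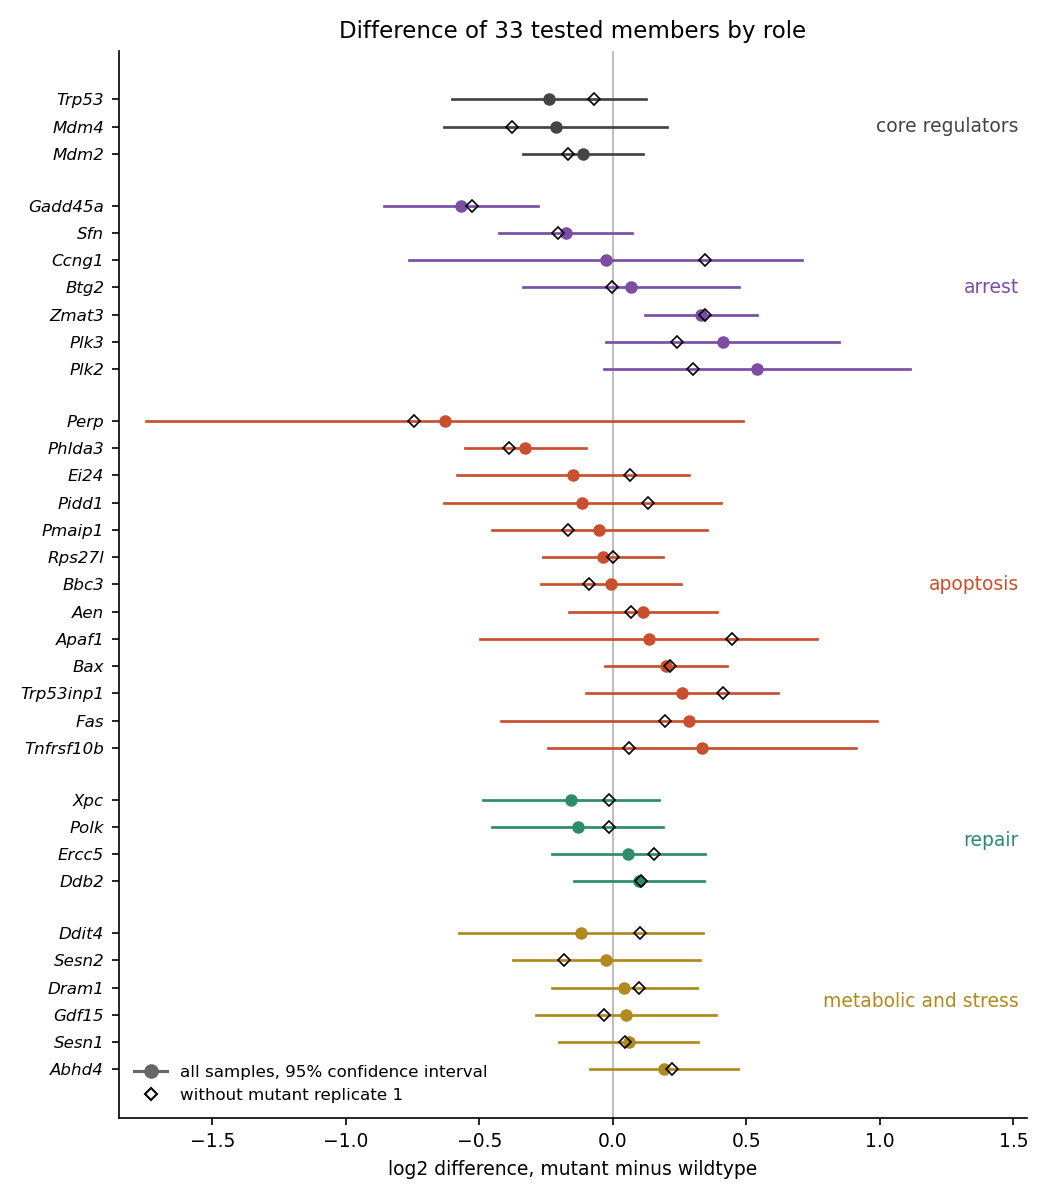
Log2 difference (mutant minus wildtype, horizontal axis) of the 33 tested members, grouped by role. Filled points are the limma estimates over 3 wildtype and 3 mutant samples with 95% confidence intervals, and open diamonds leave out mutant replicate 1. The estimates run from -0.63 (Perp) to 0.54 (Plk2), and the intervals of Gadd45a, Phlda3 and Zmat3 lie wholly on one side of 0 before any adjustment.

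The 7 arrest genes held members on both sides, with a median of 0.07, and their median size of a difference, 0.33, was larger than that of all genes (0.117). Gadd45a, a stress-induced protein that binds PCNA and holds cells before mitosis, read -0.18, 0.19 and 0.02 in wildtype and -0.64, -0.58 and -0.46 in mutant samples. The groups did not overlap, and mutant 1 did not stand apart from the other mutant samples. Mutant cells had 67.4% of the wildtype level, a difference of -0.57 ± 0.12 (SE, interval -0.86 to -0.28, unadjusted p = 0.00223, limma adjusted p = 0.297). With the replicate block the adjusted p was 0.139, and with the 8 arrays as separate samples it was 0.0352, the one setting in which any member was called and one in which 1.13% of all genes were. The same-numbered pools differed by -0.47, -0.77 and -0.48.

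Zmat3, a zinc finger protein that binds RNA, differed the other way by less. It read 0.03, -0.07 and 0.05 in wildtype and 0.30, 0.37 and 0.33 in mutant samples, with tight groups that did not overlap. Mutant cells had 126% of the wildtype level, a difference of 0.33 ± 0.09 (interval 0.12 to 0.54, unadjusted p = 0.0074, limma adjusted p = 0.413). Without mutant 1 the difference was 0.35.

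Plk2 and Plk3 encode polo-like kinases that respond to DNA damage and to growth signals. Plk2 read 0.25, -0.38 and -0.19 in wildtype and 0.91, 0.16 and 0.22 in mutant samples, and Plk3 read -0.08, -0.52 and -0.27 against 0.46, -0.14 and 0.05. For both genes the groups overlapped, because pool 1 was high in wildtype and mutant alike. Within same-numbered pools the mutant was higher each time, by 0.66, 0.54 and 0.41 for Plk2 and by 0.54, 0.38 and 0.32 for Plk3. The differences were 0.54 ± 0.24 (adjusted p = 0.727) and 0.41 ± 0.19 (adjusted p = 0.729), and with the block the adjusted p-values were 0.127 and 0.198. Without mutant 1 they shrank to 0.30 ± 0.18 and 0.24 ± 0.15.

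The remaining arrest genes were closer to 0. Sfn, the 14-3-3 protein that keeps the mitotic kinase in the cytoplasm, differed by -0.18 ± 0.11. Its groups did not overlap, but only just, with wildtype 3 and 4 at -0.0812 and mutant 1 at -0.0853. On single arrays they did overlap, with wildtype 4 at -0.12 and mutant 3 at -0.04. The anti-proliferative gene Btg2 differed by 0.07 ± 0.17, by -0.0030 without mutant 1 and by -0.10 without wildtype 2, and cyclin G1 (Ccng1) by -0.03 ± 0.31. For Ccng1 a single array set the mean: mutant 1 read -0.80 and the other mutant samples 0.23 and 0.42, against -0.12, -0.18 and 0.22 in wildtype. Without mutant 1 the difference was 0.35 (unadjusted p = 0.0524, limma adjusted p = 0.589).

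Plk2, Plk3, Gadd45a and Btg2 also respond within minutes to hours to serum and tissue handling, so immediate-early genes were read beside them. Of 16 listed genes 12 were tested and none was called in either fit. Their median per sample ran from -0.09 to 0.07 in wildtype and from -0.15 to 0.0033 in mutant samples. At an unadjusted p under 0.05 Egr1 was lower, at -0.61 ± 0.11 (limma adjusted p = 0.22), and with the block Dusp1 was also there and higher, at 0.23 (unadjusted p = 0.0481). The brightest, Jund, differed by 0.07 ± 0.16. Fosb, Junb, Zfp36 and Hspa1b were not among the genes tested. Whether such a response had a part in the arrest genes was not tested.

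**Figure D2:**
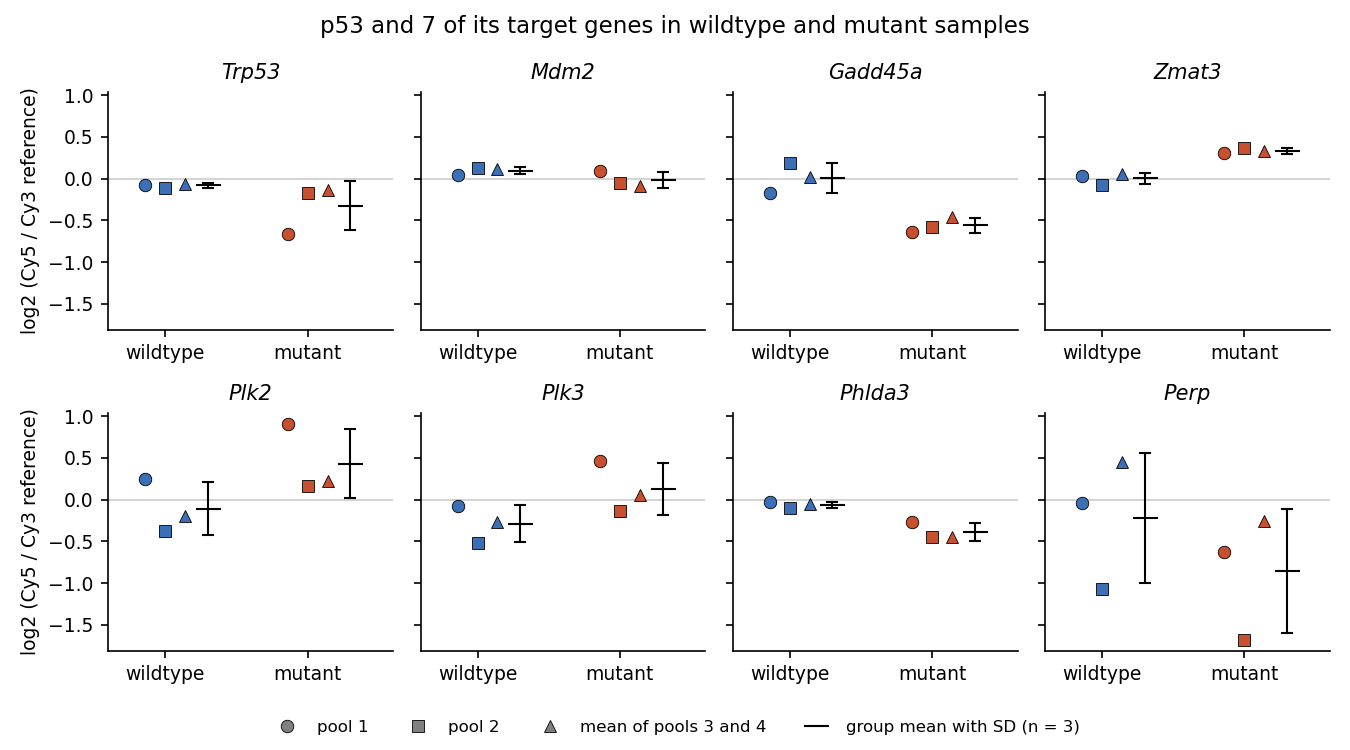
Log2 ratio of Cy5 over the Cy3 reference (vertical axis) of Trp53 and 7 of its targets in wildtype (blue) and mutant (red) samples. Symbols give the pool number and the black bars the group mean with its SD (n = 3). Mutant values of Gadd45a and Phlda3 lie below all wildtype values and those of Zmat3 above them, while the groups of Plk2, Plk3 and Perp overlap.

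Of the 14 apoptosis genes 13 were tested and 8 of these differed by less than 0.2 (72.7% of all genes), with a median of -0.0069. Phlda3, which blocks the survival kinase Akt at the membrane, read -0.03, -0.10 and -0.06 in wildtype and -0.27, -0.45 and -0.45 in mutant samples. The groups were tight and did not overlap. Mutant cells had 79.7% of the wildtype level, a difference of -0.33 ± 0.10 (interval -0.55 to -0.10, unadjusted p = 0.0112, limma adjusted p = 0.473). Without mutant 1 it was -0.39 ± 0.08.

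Perp, a membrane protein of desmosomes that p53 and p63 switch on, had the lowest difference of all members. It read -0.04, -1.08 and 0.45 in wildtype and -0.62, -1.68 and -0.26 in mutant samples. The spread between pools was wider than the difference between groups (SD 0.78 in wildtype and 0.74 in mutant), and the groups overlapped. The difference was -0.63 ± 0.47 (interval -1.75 to 0.49, limma adjusted p = 0.819). Within same-numbered pools, by contrast, it was almost constant at -0.58, -0.60 and -0.70, and with the replicate block its SE was 0.08 and its adjusted p 0.0816, the smallest of any member in that fit. Leaving out wildtype 2 gave -1.06 and leaving out mutant 2 gave -0.22.

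Perp followed the markers of the proximal tubule from sample to sample. The 11 tested markers of 12 had medians of 0.0018, -1.42 and 0.92 in the wildtype samples and of -1.04, -2.24 and -0.52 in the mutant samples, the same order as Perp. Their median difference was -1.13, and the brightest of the list, Pdzk1, was called with the block, at -1.46 ± 0.10 (limma adjusted p = 0.0313). Of the 11 markers 8 were well above background on all 8 arrays, the transporter genes Slc34a1 and Slc5a2 on 7 and Slc3a1 on 4. In pooled RNA, fewer cells of a type and less RNA per cell cannot be told apart, and the part of tubule cells in the Perp values was not tested.

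**Figure D3:**
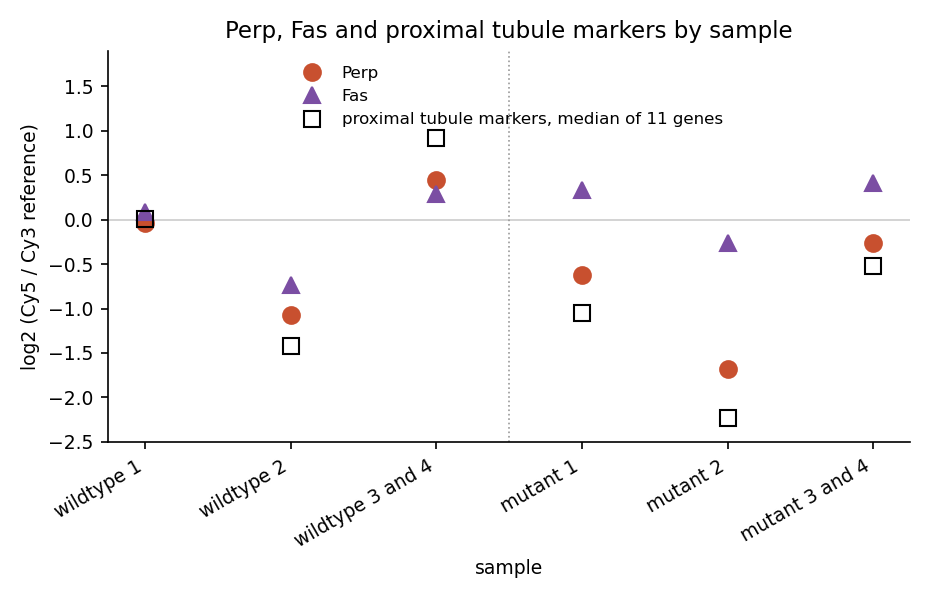
Log2 ratio of Cy5 over the Cy3 reference (vertical axis) of Perp, Fas and the median of 11 proximal tubule markers in the 3 wildtype and 3 mutant samples. Pool 2 is lowest in both groups for all 3 series, and Perp lies nearer to 0 than the tubule median in 5 of the 6 samples, wildtype 1 being close to 0 for both.

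The death receptors Fas and Tnfrsf10b, which start apoptosis from the cell surface, were higher on average without passing. Fas read 0.08, -0.74 and 0.29 in wildtype and 0.34, -0.26 and 0.41 in mutant samples, with pool 2 lowest in both groups. The difference was 0.28 ± 0.30 (adjusted p = 0.839), the same-numbered pools differed by 0.25, 0.48 and 0.12, and without wildtype 2 the difference was -0.02. Tnfrsf10b read 0.38, 0.13 and 0.51 in wildtype and 1.22, 0.54 and 0.27 in mutant samples. Its difference of 0.33 ± 0.24 (adjusted p = 0.819) came down to 0.06 ± 0.15 without mutant 1. The value of 0.38 on the array with one RNA in both dyes shows how far this probe can sit from 0 with no difference in RNA.

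Genes that act at the mitochondria were read next. Bax, which opens the outer mitochondrial membrane, read -0.38, -0.23 and -0.45 in wildtype and -0.19, -0.15 and -0.13 in mutant samples, without overlap but close together. The difference was 0.20 ± 0.10 (interval -0.03 to 0.43, adjusted p = 0.751). The BH3-only genes Bbc3 (Puma) and Pmaip1 (Noxa), which act upstream of Bax, differed by -0.01 ± 0.11 and -0.05 ± 0.17, and by -0.09 and -0.17 without mutant 1. For Bbc3 the interval ran from -0.27 to 0.25. Apaf1, the scaffold of the apoptosome, differed by 0.13 ± 0.27 with mutant 1 at -0.66, and by 0.45 without it (unadjusted p = 0.017, limma adjusted p = 0.452).

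The same array carried the low values of Pidd1, the scaffold of a caspase-2 complex, and of Ei24. They differed by -0.11 ± 0.22 and -0.15 ± 0.18 with mutant 1 at -0.50 and -0.61, and by 0.13 and 0.06 without it. Trp53inp1, a p53 cofactor in stress and autophagy, read -0.11, -0.13 and 0.09 in wildtype and -0.10, 0.37 and 0.35 in mutant samples. Its difference was 0.26 ± 0.15, and 0.41 without mutant 1 (unadjusted p = 0.00564, limma adjusted p = 0.355). Its other probe differed by 0.15. The nuclease Aen differed by 0.11 ± 0.12 (0.07 without mutant 1) and the ribosomal protein paralog Rps27l by -0.04 ± 0.09 (-0.00052 without it). The receptor Eda2r was not well above background on any array with either of its 2 probes and was not tested.

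Of the 5 DNA repair genes 4 were tested, and each differed by less than 0.2, as did 72.7% of all genes, with a median of -0.04. Xpc, which recognises bulky lesions, read -0.08, -0.15 and -0.06 in wildtype and -0.55, -0.15 and -0.07 in mutant samples. Mutant 1 alone was low, and the difference of -0.16 ± 0.14 (adjusted p = 0.824) was -0.01 without it. Ddb2, which finds ultraviolet damage ahead of Xpc, read -0.03, 0.16 and 0.08 in wildtype and 0.15, 0.07 and 0.28 in mutant samples, with overlap and a difference of 0.10 ± 0.10 (adjusted p = 0.839). The lesion-bypass polymerase Polk differed by -0.13 ± 0.14 (-0.01 without mutant 1) and the endonuclease Ercc5 by 0.06 ± 0.12 (0.16 without it). Rrm2b, the p53-induced subunit of ribonucleotide reductase, was well above background on no more than 1 array with either of its 2 probes and was not tested.

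The 6 genes of metabolism and stress all differed by less than 0.2, again the band that held 72.7% of all genes, with a median of 0.05. Abhd4, a lipid hydrolase, was the highest, reading -0.10, -0.29 and -0.05 in wildtype and -0.02, -0.06 and 0.21 in mutant samples. Its groups overlapped slightly and its difference was 0.19 ± 0.12 (interval -0.09 to 0.47, adjusted p = 0.796). Ddit4, an inhibitor of mTORC1 that also answers to hypoxia, was the lowest, reading 0.05, 0.08 and -0.11 in wildtype and -0.56, 0.05 and 0.16 in mutant samples. Its difference was -0.12 ± 0.19 (adjusted p = 0.891) and 0.10 without mutant 1, so 1 array set its sign.

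The sestrins, which restrain mTORC1 when amino acids are short, differed by 0.06 ± 0.11 (Sesn1) and -0.02 ± 0.15 (Sesn2, -0.18 without mutant 1). The autophagy gene Dram1 differed by 0.04 ± 0.11 (0.10 without mutant 1) and the secreted stress factor Gdf15 by 0.05 ± 0.14 (-0.03 without it). Dram1 was too dim on 1 of 4 mutant arrays, whereas every other tested member was well above background on all 8 arrays. No member was saturated on any array.

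Across roles, the same-numbered pools showed how far the group medians followed single arrays. The median over all 33 members was -0.07 in pool 1, 0.07 in pool 2 and -0.0042 in pools 3 and 4. For arrest genes the 3 medians were -0.01, 0.38 and 0.20, and for repair genes -0.23, 0.04 and -0.0076. Of the 5 role groups, core regulators (-0.11, -0.18 and -0.20) and genes of metabolism and stress (0.06, 0.01 and 0.10) had the same sign in each, and the first is a set of 3 genes in which Mdm4 depends on its probe. Over individual members, 9 were higher in the mutant in all 3 pairs (23% of all genes) and 7 were lower (17.4%). Without mutant 1 the group medians were -0.17 for core regulators, 0.24 for arrest, 0.06 for apoptosis, 0.05 for repair and 0.07 for metabolism and stress. Without wildtype 2 they were -0.25, -0.10, -0.04, -0.07 and -0.02 in the same order. Over all samples they were -0.21, 0.07, -0.0069, -0.04 and 0.05. Only the median of core regulators kept its sign throughout, and that of each other group depended on which sample was left out.

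**Figure D4:**
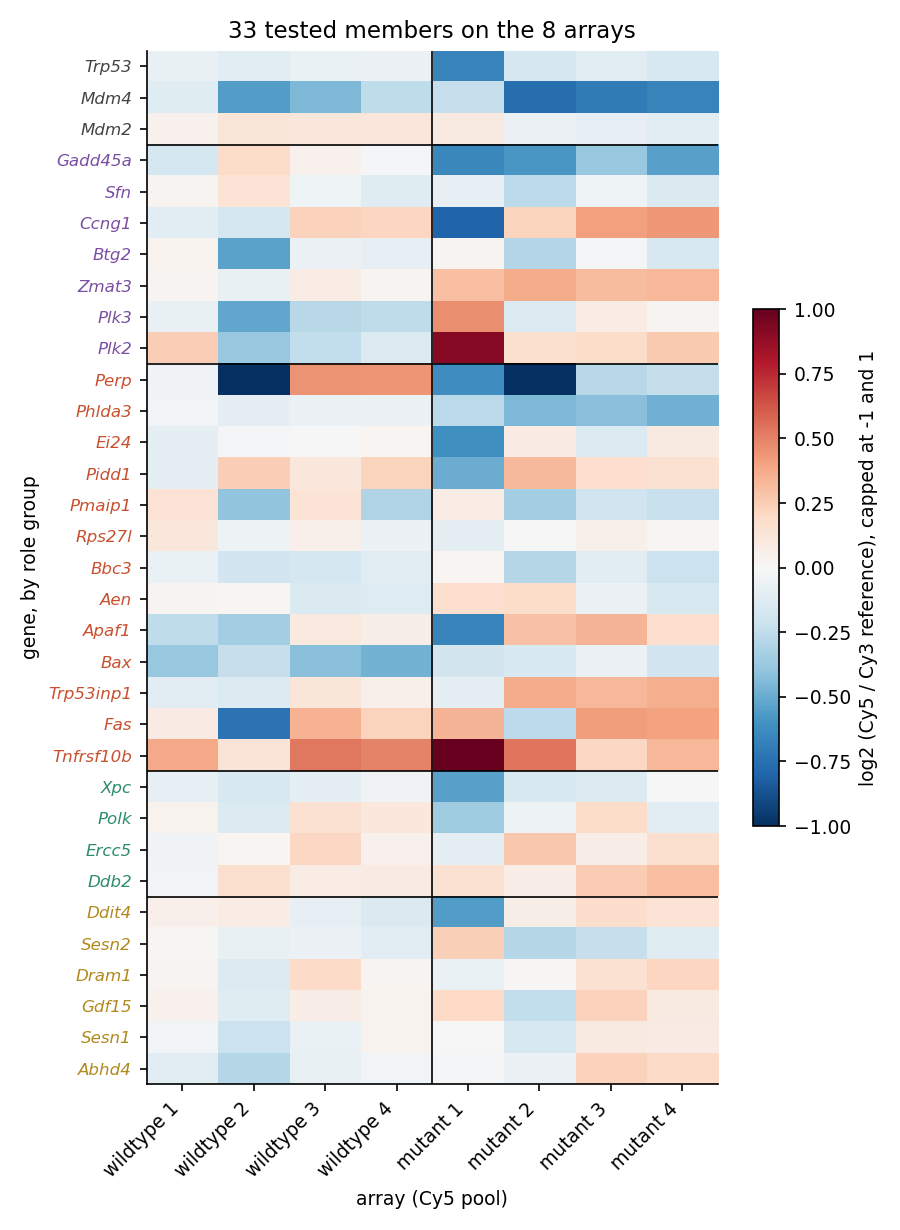
Log2 ratio of Cy5 over the Cy3 reference (colour, capped at -1 and 1) of the 33 tested members (rows, by role group) on the 8 arrays (columns, with pools 3 and 4 shown separately). Gadd45a and Phlda3 are lower and Zmat3 higher on all 4 mutant arrays. Trp53, Ccng1, Gadd45a, Apaf1, Ei24, Pidd1, Rps27l, Xpc, Polk, Ercc5 and Ddit4 have their lowest value on mutant 1.

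The genes around the pathway were read in the same way. Of 10 kinases and damage sensors that act on p53 none was called in either fit, and their median was -0.07, or 0.12 without mutant 1. The brightest of them, Atr, differed by 0.15 ± 0.09. Of 19 modifiers and partners of p53 18 were tested, none was called, and the median was -0.05. Smyd2, a lysine methyltransferase of p53 and the brightest of these, differed by -0.05 ± 0.10. Twist1 differed by 0.24 with the block (unadjusted p = 0.0411, limma adjusted p = 0.369). In that fit 12.7% of all genes had an unadjusted p under 0.05.

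Of 36 further p53 targets 35 were tested and none was called in either fit, with a median of 0.07. Ephx1, an epoxide hydrolase, came closest. It read 0.12, -0.36 and 0.23 in wildtype and 0.92, 0.24 and 0.81 in mutant samples, higher in every mutant sample than in any wildtype one. The difference was 0.66 ± 0.23 (limma adjusted p = 0.577), and with the block the adjusted p was 0.0863. Btg1 was higher by 0.24 ± 0.10 (unadjusted p = 0.0463, limma adjusted p = 0.673). Gls2, the mitochondrial glutaminase, differed by -0.32 ± 0.12 (unadjusted p = 0.0291, limma adjusted p = 0.616). With the block Trp53inp2 differed by 0.27 (unadjusted p = 0.0487, limma adjusted p = 0.391).

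Cdkn1a, which has the full site shown above in one of its promoter windows, read 0.05, -0.43 and 0.12 in wildtype and 0.18, -0.35 and 0.17 in mutant samples. The groups overlapped and the difference was 0.09 ± 0.20 (interval -0.39 to 0.57, adjusted p = 0.923).

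Cell type and cycle markers gave the setting of these values. Among the cap mesenchyme markers Cited1 was called, at -2.72 ± 0.13 (limma adjusted p = 0.00279), and with the block Meox2 as well, while Eya1, the brightest, differed by 0.05 ± 0.10. The list medians were -0.32 for cap mesenchyme, -0.54 for podocytes, 0.17 for ureteric bud, 0.25 for stroma, 0.20 for endothelium, 0.0087 for macrophages and 0.05 for erythroid cells. No marker of these last 6 cell types was called in either fit. S phase genes had a median of -0.05 and G2/M genes of -0.0032, with none called. The part of other cell types in the members' values was not tested.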

How the data were processed

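Per the file headers, the deposited files of each array give the intensity of every spot and a log10 ratio of Cy5 over Cy3, as written by Agilent Feature Extraction 10.7.3.1 (a version the submitters' processing notes name too) after background subtraction and dye normalization. The authors' table of values repeats these log10 ratios (r of at least 0.999999 on each array), and its column medians were 0 on 7 arrays and 0.00483 on wildtype 2. RNA input was 0.5 µg of total RNA. All arrays shared 1 slide, and mutant and wildtype arrays each filled a row of it, so the group cannot be told apart from the row.

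Median spot intensity was corrected by normexp (offset 50) and normalized by loess within arrays in limma 3.58.1 under R 4.3.3. Control and outlier spots had weight 0, and outlier spots were left out. A probe was kept where its Cy5 signal was well above background on 3 or 4 arrays of a group (30364 of 55681), and the brightest probe stood for a gene (22662 genes, 14992 with a RefSeq symbol of GRCm38.p6). Groups were compared on log2 ratios with lmFit and eBayes, two-sided, with Benjamini-Hochberg adjustment over all genes and a threshold of 0.05. For a single value, the exact permutation test of 3 against 3 samples cannot go below 0.1. Scripts were tested on simulated data.

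Between log2 levels of 10 and 12, the Cy5 levels of pools 3 and 4 differed by a median of 0.0574 and 0.0604, the Cy3 levels of the common RNA by 0.0456 to 0.0834 between arrays without wildtype 2, and other Cy5 pairs by 0.11 to 0.359. Pool numbers were taken to pair samples from the data, not from a label, since deviations of same-numbered samples from their group means correlated with r = 0.495, 0.543 and 0.527. Precision is limited by how few arrays there are.

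The members, the other lists and the rule for naming genes were chosen with earlier results of these data known. A member got its value in every sample if it passed a fit with or without the block, had an unadjusted p under 0.05, was a core regulator or was highest or lowest of its role group; values of Ccng1, Bax and Trp53inp1 were added after they were seen. Other listed genes could be named if called in either fit, if on a p53 list with an unadjusted p under 0.05, or if brightest of their list. Cdkn1a and, after their values were seen, Egr1, Dusp1 and 3 tubule transporter genes were named too. Alternatives covered background correction, normalization, channel, filter, probe choice, merged pools, variance model, replicate block and leaving out each sample. The values of 1 gene on a marker list are not reported here.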

Additional observations from a re-analysis of the deposited data

How the results depend on the processing

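Against 10 genes called, Cy5 level alone gave 3 (1 higher and 2 lower, against 5 and 5), the trended and robust variance 5 (5 higher, 0 lower), and the 8 arrays as separate samples 257, of which 1 was a member (Gadd45a). Leaving out a sample gave 1 (without wildtype 3 and 4) to 9 (without mutant 2), with 3 without mutant 3 and 4, 4 without wildtype 1 or wildtype 2, and 6 without mutant 1. Members called stayed at 0 under every other alternative run. The replicate block gave 34 genes and 0 members. With a pool number left out of both groups it called 0 (pool 1), 47 (pool 2) and 0 genes (pools 3 and 4). In the blocked fit of all samples 7 members had an unadjusted p under 0.05, where all genes gave 12.7%. The fits without a pool number were chosen after seeing the data. There the count of members became 11 without pool 1 (14% of all genes), 4 without pool 2 (10.3%) and 5 without pools 3 and 4 (6.6%).

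Median centring without loess shifted the median of all genes to 0.07 and Cy5 level alone to -0.11. The members' median became 0.077 and -0.12, that of apoptosis 0.10 with median centring, and with Cy5 alone core regulators had -0.34, repair -0.20 and metabolism and stress -0.13. Averaging the probes of a gene put the core median at -0.11. Leaving out a sample gave -0.25 to -0.11 for core regulators, -0.10 (without wildtype 2) to 0.24 (without mutant 1) for arrest against 0.07, -0.098 to 0.046 for repair against -0.037, -0.036 to 0.076 for apoptosis and -0.017 to 0.10 for metabolism and stress. Of the 15 members given in every sample by the naming rule, direction turned for Mdm2 (0.0071, median centring), Mdm4 (0.029, mean over probes), Ddb2 (-0.17, Cy5 alone), Fas (leaving out a sample, -0.024 to 0.50) and Ddit4 (-0.26 to 0.10). Of the other tested members, Ccng1, Btg2, Pidd1, Ei24 and Gdf15 turned without mutant 1, and Btg2, Sesn1, Dram1 and Gdf15 without wildtype 2. For these other members the sign was not checked under the remaining alternatives, so more of them may turn there. The cause of the turns was not tested. Gadd45a, Zmat3, Phlda3, Plk2, Plk3, Perp, Trp53, Tnfrsf10b, Xpc and Abhd4 kept their direction in all 18 alternatives, Gadd45a from -1.05 to -0.48, with adjusted p from 0.0352 to 0.879.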
